A study of Mus musculus with 9 samples.

Results

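The colon of irradiated mice, 84 h after 13 Gy of ionising radiation, was compared with the colon of unirradiated mice. The comparison uses 6 of the 9 libraries of the series, chosen by their labels and without regard to any measured value. These are IR 2, IR 3 and IR 4 from mice that received radiation and no compound, and Con 2, Con 3 and Con 4 from mice that received neither. Every mouse was a wild-type male C57BL/6, and each library came from the colon of 1 mouse by poly(A) RNA sequencing. The design text of the series gives an age of 8 weeks, abdominal irradiation and saline for the Con mice, whereas the treatment protocol gives 6 weeks and irradiation of the whole body, and the sample labels give PBS for the Con mice. No injection is named for the IR mice, so radiation and any difference in handling cannot be told apart. The other 3 libraries, from irradiated mice given the compound CF-2, supply no level or group mean here. They enter the choice of genes to test, the scaling and the estimate of the spread between mice.

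Ionising radiation breaks DNA. In the gut lining the dividing cells at the base of the crypts are hit hardest: the tumour suppressor p53 is stabilised, switches on genes for arrest, repair and cell death, and crypts then shrink over hours to days. Surviving crypt cells later re-enter the cycle in a burst of proliferation that rebuilds the lining. Lymphocytes of the gut wall are among the most radiosensitive cells of the body.

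Libraries held 34434015, 36401575 and 38906047 counts in IR and 40610145, 42425392 and 37667557 counts in Con. A floor of 3 counts corresponds to 0.0707 to 0.0871 CPM, counts scaled to a library total of 1000000. Gene coordinates are those of GENCODE M21 on GRCm38, from the first to the last exon. Levels below are CPM of the library total, given for libraries 2, 3 and 4 in that order unless named otherwise, and they cover every transcript of the colon wall. Colon identity was checked on defining markers, which were present in every library. The brush border gene Vil1 had 849, 915 and 804 CPM in IR, against 956, 1165 and 1086 CPM in Con. The intestinal regulator Cdx2 had 277, 284 and 360.4 CPM in IR, against 383, 365 and 373 CPM in Con. The stretch of colon sampled is not given. Hoxa13, a marker of its distal end, had 2.82, 1.68 and 0.771 CPM in IR, against 43.95, 0.966 and 7.96 CPM in Con. Its groups overlapped. Con 2 lay far above the other libraries, Con 4 also lay above every IR mouse, and Con 3 lay within the IR range. Of 18 markers of position along the colon 17 were below 0 in log2 fold change. None passed the edgeR test with 9 libraries (6 with an unadjusted p under 0.05, 4 by DESeq2, 0 by limma-voom, 1 lower with the 6 libraries alone). Their list mean was -0.71, -0.98 and -0.62 in IR, against 0.23, -0.48 and 0.24 in Con (log2 from the Con mean).

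The first principal component of the 6 libraries held 49.6% of the variance and separated IR, at 48.4, 68.5 and 31.2, from Con, at -55.9, -40.9 and -51.2. The second, with 21.5%, set IR 4 apart at -64.0, where IR 2 and IR 3 stood at 42.13 and 11.01 and the Con libraries between -13.2 and 22.7. A total of 19174 genes were tested with edgeR's quasi-likelihood test, and 454 were higher and 162 lower in IR at a Benjamini-Hochberg adjusted p under 0.05. These are 2.37% and 0.845% of the genes tested. With the 6 libraries fitted alone 1580 of 18469 genes were higher (8.55%) and 727 lower (3.94%), and 450 of the 454 and 161 of the 162 were among them. RLE scaling left 173 higher and 104 lower genes, and scaling on the upper quartile 166 and 136. The median log2 fold change of all tested genes was 0.01.

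Every IR library lay above every Con library in 4293 of the 19174 genes (22.4%) and below in 2730 (14.2%), and this held for all 616 called genes. The calls lie close to the threshold: at an adjusted p under 0.01 none was higher and 1 lower, where 4591 genes had an unadjusted p under 0.05. Without IR 4 there were 789 higher and 402 lower genes, but without IR 2, IR 3, Con 2, Con 3 or Con 4 only 0, 0, 0, 4 and 0 higher and 1, 1, 1, 10 and 2 lower, so hardly any call survived the loss of a library other than IR 4. Of the 118 called genes named in the text 1 to 7 stayed called when 1 of these 5 libraries was left out. DESeq2 on the same 9 libraries gave 1449 higher and 864 lower genes, and limma-voom 115 and 71. With the log2 level of Hoxa13 as a covariate the split was 16 higher and 33 lower. A call below means a call in the 9-library edgeR fit, and the number called in a list with the 6 libraries alone is set beside it. The lists and their members were chosen with earlier results of these data known, so their counts describe and do not test. For each list, the shares of all genes to set beside these counts are 2.37% higher and 0.845% lower. With the 6 libraries alone they are 8.55% and 3.94%. List counts by an unadjusted p under 0.05 are to be set beside 4591 of all 19174 genes. For DESeq2 with 9 libraries the counts over the same genes are 1449 higher and 864 lower, and for limma-voom 115 and 71. Leaving out IR 4 gave 789 and 402 of 19740 genes. A list count near such a share does not set the list apart from all genes.

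**Figure D1:**
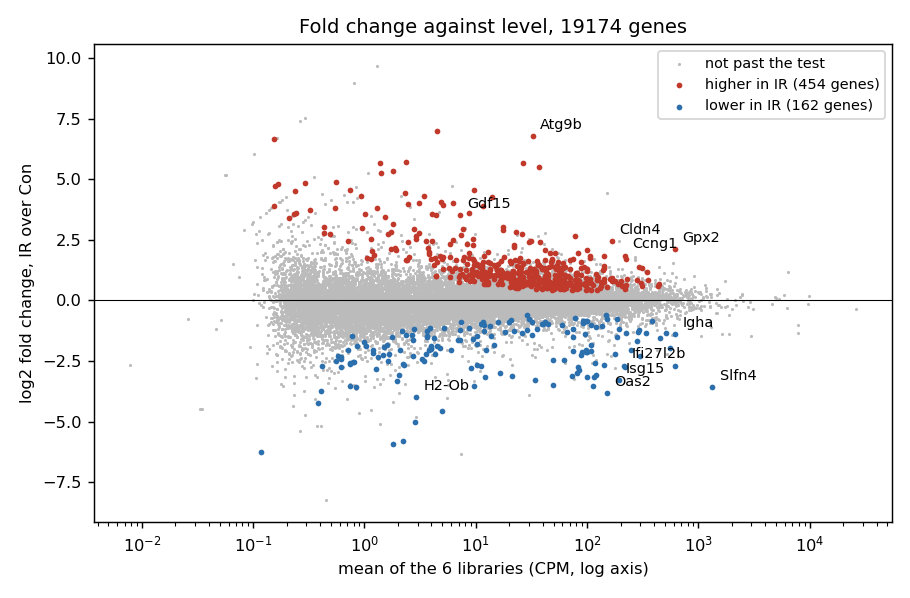
Log2 fold change of IR over Con (y axis) against the mean of the 6 libraries in CPM (x axis, log scale) for 19174 genes, with the 454 called higher in red and the 162 called lower in blue. Gpx2, Ccng1 and Cldn4 stand among the abundant genes that rose, and Slfn4, Oas2 and Isg15 among those that fell.

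The median log2 fold change was 1.11 among the genes that rose and -1.97 among those that fell. IR 4 had the lowest level of the 3 IR libraries in 419 of the 454 genes that rose (92.3%), against 50.5% of all tested genes. Over the 454 genes the median distance from the Con mean was 1.30, 1.25 and 0.80 (log2) in IR 2, IR 3 and IR 4. Over the 162 genes that fell it was -1.77, -1.73 and -1.80, so IR 4 was as far from Con as the other IR mice for the decreases. Genes below 1 CPM gave 19 increases and 18 decreases among 3993 tested, and the range from 10 to 100 CPM gave 294 increases and 56 decreases among 7739.

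**Figure D2:**
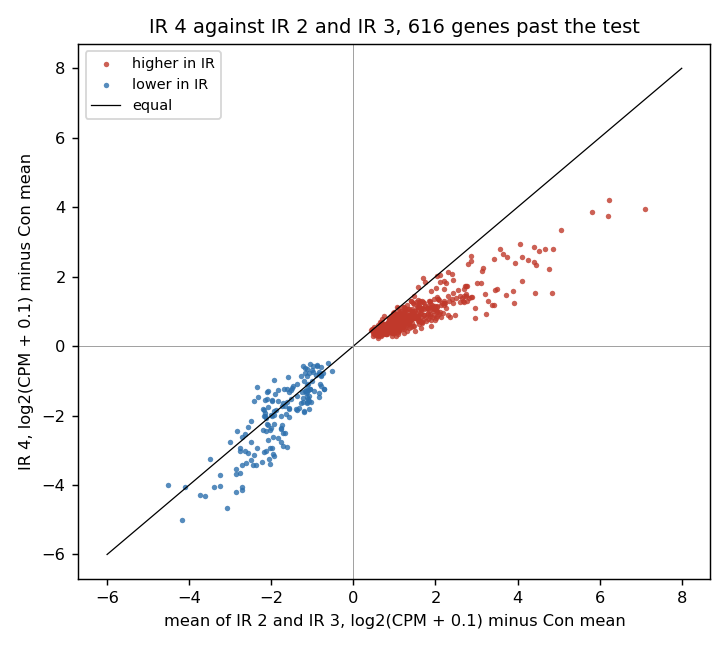
Distance from the Con mean in IR 4 (y axis) against the mean of IR 2 and IR 3 (x axis), both as log2(CPM + 0.1), for the 616 called genes. Genes that rose lie mostly below the line of equality and genes that fell lie on both sides of it.

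Target genes of p53 were higher in IR at 84 h. Of 37 measured targets 19 rose and 0 fell, where 2.37% of all genes rose, with 21 higher and 1 lower from the 6 libraries alone and 23 called without IR 4. The list median was 1.05 (log2), and called members ranged from 0.84 for Rps27l to 4.42 for Ano3. The stress cytokine gene Gdf15 (chr8:70629393-70632456) had 14.6, 17.99 and 7.17 CPM in IR, against 1.43, 0.919 and 1.06 CPM in Con (log2 fold change 3.53 ± 0.38, adjusted p = 0.0222). Eda2r, a receptor of the tumour necrosis factor family, had 29.7, 27.4 and 8.28 CPM in IR, against 1.77, 1.04 and 1.51 CPM in Con (log2 fold change 3.90 ± 0.45, adjusted p = 0.0222). In both genes every IR mouse stood above every Con mouse and IR 4 was the lowest IR mouse.

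Called targets included genes of cell death and genes that restrain growth or p53 itself. Bax, which opens the mitochondrial outer membrane, had 59.5, 66.04 and 35.4 CPM in IR, against 19.8, 19.4 and 17.7 CPM in Con (log2 fold change 1.48 ± 0.20, adjusted p = 0.0236). Tnfrsf10b, the mouse TRAIL death receptor, had 27.7, 28.7 and 14.6 CPM in IR, against 7.12, 8.27 and 9.24 CPM in Con (1.51 ± 0.24, adjusted p = 0.0296), and the apoptosis-enhancing nuclease gene Aen rose by 1.65 ± 0.32. IR 2 and IR 3 were near each other in Bax and Tnfrsf10b, and IR 4 lay between them and Con. Of the genes that feed back on p53 or on growth, Ccng1 (chr11:40748552-40755311), cyclin G1, had 439.6, 420.0 and 182 CPM in IR, against 93.8, 91.5 and 98.3 CPM in Con (log2 fold change 1.85 ± 0.27, adjusted p = 0.0271). Mdm2, the ubiquitin ligase that degrades p53, had 140.0, 140.2 and 75.6 CPM in IR, against 55.1, 56.95 and 56.95 CPM in Con (log2 fold change 1.05 ± 0.20, adjusted p = 0.0382). The Akt inhibitor Phlda3 had 51.98, 56.5 and 13.7 CPM in IR, against 7.12, 4.20 and 5.50 CPM in Con (log2 fold change 2.84 ± 0.45, adjusted p = 0.0296). The groups did not overlap in any of these, and IR 4 was again the lowest IR mouse. Sesn2, an inhibitor of the growth kinase complex mTORC1, rose by 1.15 ± 0.20.

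A pair of well known targets did not pass the test. Cdkn1a, the p21 inhibitor of cyclin-dependent kinases, had 321, 387 and 263 CPM in IR, against 220.0, 238 and 198 CPM in Con (log2 fold change 0.55 ± 0.17, adjusted p = 0.0931); its groups did not overlap. Perp, a desmosome gene that is also a p53 target, had 306, 377 and 332 CPM in IR, against 321, 309 and 341 CPM in Con (adjusted p = 0.831), with overlapping groups. In bulk tissue fewer cells of a type and less RNA per cell cannot be told apart, for this list and for all that follow.

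**Figure D3:**
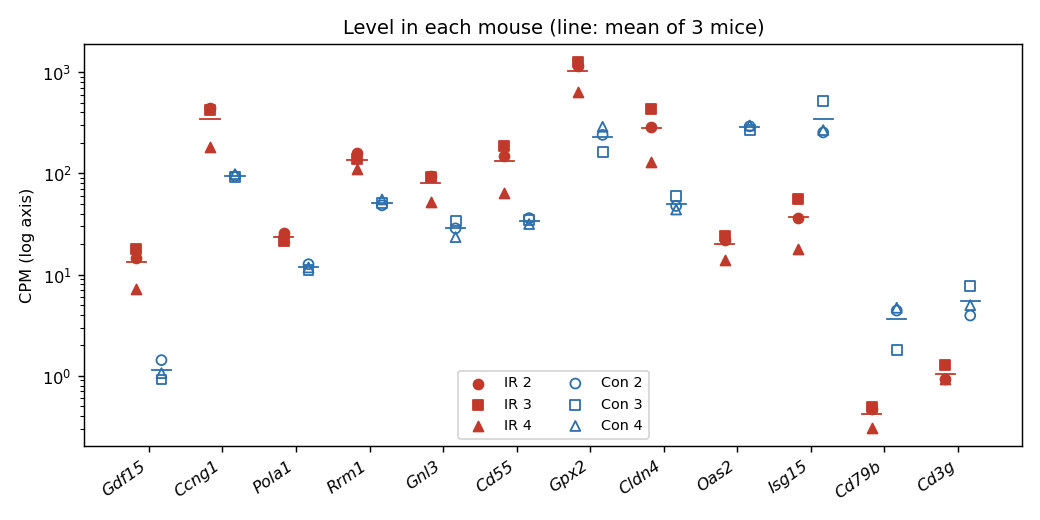
CPM (y axis, log scale) of 12 genes in each mouse, IR in filled red symbols left of Con in open blue ones, with a line at each mean of 3 mice. IR lies above Con for the first 8 genes and below it for Oas2, Isg15, Cd79b and Cd3g, and IR 4 is the lowest IR mouse for Gdf15, Ccng1, Gpx2 and Cldn4.

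DNA replication genes were higher in the irradiated colon. Of 36 members 13 rose and none fell, 31 were higher from the 6 libraries alone and 14 were called without IR 4, and in 34 every IR mouse lay above every Con mouse (22.4% of all genes). The list median was 0.99. The catalytic subunit of polymerase alpha, Pola1 (chrX:93304767-93632155), had 25.5, 21.5 and 23.6 CPM in IR, against 12.7, 11.1 and 11.8 CPM in Con (log2 fold change 0.99 ± 0.15, adjusted p = 0.028). The primase subunit Prim1 had 23.7, 21.9 and 19.8 CPM in IR, against 12.2, 11.7 and 12.9 CPM in Con (log2 fold change 0.83 ± 0.14, adjusted p = 0.0304). These are the enzymes that start each new DNA strand, and their IR values differed little between mice. Of the replicative helicase Mcm3, Mcm4, Mcm5 and Mcm7 rose, by 1.54, 1.19, 1.40 and 1.15 on the log2 scale. Mcm5 had 108, 95.4 and 71.8 CPM in IR, against 30.9, 38.7 and 33.6 CPM in Con (adjusted p = 0.0415).

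The supply of nucleotides was part of the same group. Rrm1, the large subunit of ribonucleotide reductase, had 159.8, 140.2 and 111 CPM in IR, against 48.3, 50.6 and 55.2 CPM in Con (log2 fold change 1.40 ± 0.25, adjusted p = 0.0339), with all IR mice above the highest Con mouse. The dUTPase gene Dut rose by 1.17 ± 0.26. Rrm2, the small subunit of ribonucleotide reductase, had 105, 105 and 65.7 CPM in IR, against 21.9, 21.9 and 28.8 CPM in Con and was called with the 6 libraries alone (adjusted p = 0.0143, against 0.0596 with 9). Uhrf1, which carries DNA methylation over to the new strand, had 105, 89.1 and 69.1 CPM in IR, against 31.1, 37.5 and 34.9 CPM in Con (log2 fold change 1.33 ± 0.24, adjusted p = 0.0326). Pcna, the sliding clamp of the polymerases, had 156, 162 and 133 CPM in IR, against 81.9, 102 and 85.5 CPM in Con (log2 fold change 0.73 ± 0.22, adjusted p = 0.0934) and was short of the threshold with groups apart.

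Promoters of the replication genes carry sites for E2F factors, which open the S phase. Promoters here run from 250 bases before to 50 bases after the annotated start, from RefSeq on GRCm38.p6, and 12991 of the tested genes have one. The letters searched on both strands were TTTCCCGC, TTTGGCGC, TTTCGCGC and TTTGCCGC. They were found in 13 of 29 replication promoters (44.8%), in 7 of 10 belonging to called members (70.0%) and in 538 of all 12991 (4.14%). The p53 consensus element, searched in its strict form, was found in 0 of the 17 called p53 targets with a promoter in the table, in 1 of the 29 tested (3.45%) and in 7 of all 12991 (0.0539%). A match is a run of letters and no measured binding, and no match says only that the letters are not in this window. Windows of 100 bases around the matches of Mcm5 (chr8:75109310-75109409, plus strand) and Pola1 (chrX:93632240-93632339, minus strand) are shown as examples of called members, 5′ to 3′ on the strand of the gene with the matches in capitals; overlapping matches run together.
Mcm5: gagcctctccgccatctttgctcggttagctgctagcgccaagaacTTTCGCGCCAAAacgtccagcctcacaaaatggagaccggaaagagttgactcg
Pola1: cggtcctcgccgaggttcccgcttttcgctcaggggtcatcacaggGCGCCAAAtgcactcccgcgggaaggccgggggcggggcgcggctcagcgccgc

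Mitotic genes lay higher in IR, with few calls. Of 38 members 37 had every IR mouse above every Con mouse, and the median was 1.13, yet 2 rose and 1 fell, against 29 higher and 1 lower with the 6 libraries alone and 4 called without IR 4. The Con mice differed here: their list means were 0.04, -0.50 and 0.46 (log2 from the Con mean) in Con 2, Con 3 and Con 4, against 1.21, 1.11 and 0.99 in IR 2, IR 3 and IR 4. Ect2, an exchange factor that positions the cleavage furrow, had 81.1, 69.3 and 47.1 CPM in IR, against 23.2, 19.1 and 32.9 CPM in Con (log2 fold change 1.38 ± 0.27, adjusted p = 0.0401). Smc2, the core of condensin, had 65.7, 57.6 and 56.8 CPM in IR, against 22.8, 18.4 and 29.7 CPM in Con (log2 fold change 1.34 ± 0.27, adjusted p = 0.0411).

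The exception among the mitotic genes was Pttg1, securin, which holds sister chromatids together until anaphase. It had 19.6, 21.7 and 25.3 CPM in IR, against 35.3, 43.3 and 35.6 CPM in Con (log2 fold change -0.78 ± 0.17, adjusted p = 0.0469) and was the 1 member below Con in every IR mouse. Among members short of the threshold, the proliferation antigen gene Mki67 had 271, 268 and 273 CPM in IR, against 137, 87.9 and 187 CPM in Con (adjusted p = 0.0809). The chromosome kinase Aurkb had 41.2, 40.3 and 38.3 CPM in IR, against 17.9, 12.6 and 22.8 CPM in Con (adjusted p = 0.0528) and the topoisomerase Top2a had 301, 269 and 237 CPM in IR, against 101, 90.5 and 135 CPM in Con (adjusted p = 0.0565). The groups did not overlap in these genes, and Con 3 was the lowest Con mouse in each.

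The cell cycle homology element, TTTGAA on either strand, is a known feature of mitotic promoters. It stood in 24 of 33 promoters of this list (72.7%) and in 1974 of all 12991 (15.2%). Among promoters of called genes it stood in 62 of 350 that rose (17.7%) and in 26 of 110 that fell (23.6%). Ect2, which was called, and Cdk1, the mitotic kinase, are shown (chr3:27153940-27154039, minus strand; chr10:69352931-69353030, minus strand), with the element in capitals. Cdk1 had 72.8, 76.6 and 66.8 CPM in IR, against 29.4, 21.3 and 37.4 CPM in Con and was called with the 6 libraries alone (1.30 ± 0.31, adjusted p = 0.0153, against 0.0541 with 9).
Ect2: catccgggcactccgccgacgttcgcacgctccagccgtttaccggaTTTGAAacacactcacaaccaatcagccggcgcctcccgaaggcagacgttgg
Cdk1: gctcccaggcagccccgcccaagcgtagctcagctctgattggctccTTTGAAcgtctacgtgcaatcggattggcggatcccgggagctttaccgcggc

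DNA repair genes were higher, among them genes that guard the replication fork and mend double-strand breaks by recombination. Of 39 members 13 rose and none fell (26 higher with the 6 libraries alone, 10 called without IR 4), and the median was 0.88. Exo1, the nuclease that resects broken ends, had 17.7, 16.9 and 11.3 CPM in IR, against 4.97, 6.36 and 4.59 CPM in Con (log2 fold change 1.503 ± 0.26, adjusted p = 0.0304). Topbp1, an activator of the checkpoint kinase ATR, had 101, 94.4 and 84.7 CPM in IR, against 43.8, 50.8 and 50.6 CPM in Con (log2 fold change 0.93 ± 0.16, adjusted p = 0.0312). IR 4 was the lowest IR mouse in both genes and lay above every Con mouse. The fork protection partners Timeless and Tipin rose by 1.01 ± 0.19 and 1.09 ± 0.23, and Blm and Brca2 by 1.46 ± 0.31 and 0.95 ± 0.20.

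Smaller increases came from mismatch repair and end joining. Msh6, which recognises mispaired bases, had 61.04, 58.6 and 44.95 CPM in IR, against 29.3, 38.1 and 26.5 CPM in Con (log2 fold change 0.79 ± 0.17, adjusted p = 0.0481). Xrcc5, a Ku subunit that binds broken ends, rose by 0.52 ± 0.11, and the break sensor Parp1 by 0.66 ± 0.14. All libraries of IR lay above those of Con for these genes.

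The list of cell cycle brakes and senescence genes held 2 increases among 26 members (9 with the 6 libraries alone). Cdkn1c, the inhibitor p57, had 20.1, 23.5 and 16.1 CPM in IR, against 7.56, 6.88 and 5.63 CPM in Con (log2 fold change 1.56 ± 0.19, adjusted p = 0.0227), with the IR mice close together. The other increase was Ccnd1, cyclin D1, a driver of the cycle and no brake, with 269, 267 and 138 CPM in IR, against 51.9, 68.4 and 64.03 CPM in Con (log2 fold change 1.84 ± 0.36, adjusted p = 0.0405). The repressor E2f7 had 13.5, 11.9 and 10.3 CPM in IR, against 3.92, 4.31 and 5.50 CPM in Con (adjusted p = 0.0572, and 0.0157 with the 6 libraries alone).

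**Figure D4:**
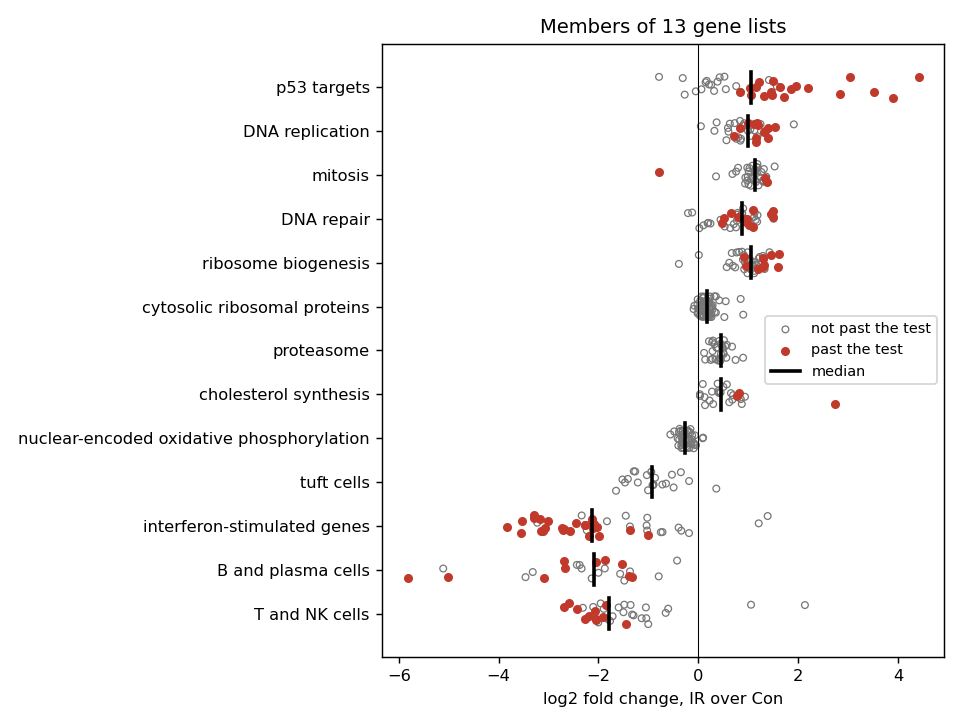
Log2 fold change of IR over Con (x axis) for each tested member of 13 gene lists (rows), with called members filled and a line at each list median. Members of replication, mitosis, repair and ribosome biogenesis lie around 1, ribosomal proteins around 0.16, and interferon-stimulated genes around -2.14.

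Genes that build ribosomes were higher, whereas no gene for the ribosome's own proteins was called with 9 libraries and 4 of 75 with the 6 libraries alone. Ribosomes are assembled in the nucleolus by factors that cut, modify and fold the ribosomal RNA, a costly step of cell growth. Of 43 such factors 9 rose and none fell, with 37 higher and 1 lower (Polr1c) from the 6 libraries alone and 26 called without IR 4. The median was 1.05, and 41 had every IR mouse above every Con mouse. IR 4 stood nearer to Con, with a list mean of 0.55 against 1.22 and 1.22 in IR 2 and IR 3 (log2 from the Con mean).

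Rrp1b, a nucleolar processing factor, had 46.6, 44.1 and 21.4 CPM in IR, against 11.2, 13.5 and 10.96 CPM in Con (log2 fold change 1.62 ± 0.29, adjusted p = 0.0343). Gnl3, nucleostemin, a GTPase of dividing and stem cells, had 94.7, 91.7 and 52.6 CPM in IR, against 28.6, 34.1 and 23.5 CPM in Con (log2 fold change 1.45 ± 0.26, adjusted p = 0.0353). IR 2 and IR 3 were nearly level in both, and IR 4 lay between them and Con. Of the particle that converts uridine to pseudouridine in ribosomal RNA, Dkc1 had 67.1, 64.97 and 40.8 CPM in IR, against 21.9, 25.1 and 22.03 CPM in Con (log2 fold change 1.30 ± 0.25, adjusted p = 0.0374), and Nhp2 and Gar1 rose by 1.60 ± 0.33 and 1.20 ± 0.25. Polr1b, a subunit of RNA polymerase I, rose by 0.91 ± 0.20. The nucleolar gene Ncl, nucleolin, had 924, 929 and 553 CPM in IR, against 374, 365 and 343 CPM in Con and was called with the 6 libraries alone (adjusted p = 0.0207, against 0.0683 with 9). Npm1, nucleophosmin, had 746, 803 and 466 CPM in IR, against 325, 284 and 310.1 CPM in Con and was likewise called with the 6 libraries alone (adjusted p = 0.021, against 0.0877 with 9).

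Of 75 genes of cytosolic ribosomal proteins none passed the edgeR test with 9 libraries, 5 had an unadjusted p under 0.05, and DESeq2 called 2 and limma-voom 0, against 4 higher with the 6 libraries alone. Their median was 0.16, and 68 were above 0 in log2 fold change. In 31 every IR mouse lay above every Con mouse (22.4% of all genes), so small increases were common without calls. Rplp0 had 1537, 1668 and 1560.0 CPM in IR, against 1379, 1353 and 1282 CPM in Con (log2 fold change 0.24 ± 0.17, adjusted p = 0.41). Many of these genes have near-identical processed copies, and how shared reads were counted is not stated.

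Proteasome genes lay slightly higher in IR without a call. Of 32 proteasome genes none passed the edgeR test with 9 libraries, though 30 had every IR mouse above every Con mouse; 11 had an unadjusted p under 0.05, 17 were called with the 6 libraries alone, 1 by DESeq2 and 0 by limma-voom. Psme3, an activator cap of the nuclear proteasome, had 188, 187 and 124 CPM in IR, against 84.9, 93.2 and 86.9 CPM in Con (adjusted p = 0.0761), and no IR mouse overlapped with Con. In polyamine metabolism Amd1, which makes the aminopropyl donor, had 121, 119.6 and 84.4 CPM in IR, against 47.4, 54.9 and 45.98 CPM in Con (log2 fold change 1.11 ± 0.18, adjusted p = 0.0296); it has near-identical copies in the mouse. Odc1, the first enzyme of that pathway, had 346, 368 and 256 CPM in IR, against 173, 198 and 166 CPM in Con (adjusted p = 0.167, and 0.0263 with the 6 libraries alone).

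The increases in the list of the unfolded protein and integrated stress responses were genes of serine synthesis: 2 of 32 rose (7 higher and 1 lower with the 6 libraries alone). Phgdh, the first enzyme of serine synthesis, had 64.6, 62.3 and 31.9 CPM in IR, against 9.26, 8.20 and 11.5 CPM in Con (log2 fold change 2.44 ± 0.48, adjusted p = 0.0401). Psat1, the next, had 81.5, 71.5 and 36.5 CPM in IR, against 13.3, 9.99 and 12.1 CPM in Con (log2 fold change 2.40 ± 0.53, adjusted p = 0.0478). IR 2 and IR 3 stood near each other and IR 4 below them, apart from Con. Shmt2, which passes the serine carbon to folate in mitochondria, had 73.3, 71.3 and 38.97 CPM in IR, against 21.1, 16.9 and 22.1 CPM in Con (adjusted p = 0.0665, and 0.016 with the 6 libraries alone). Ddit3, the CHOP factor of a severe stress response, had 11.6, 11.6 and 9.95 CPM in IR, against 14.7, 16.9 and 16.4 CPM in Con (adjusted p = 0.0843), below Con in every IR mouse.

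Cholesterol synthesis genes were higher. Of 25 genes of cholesterol synthesis and its control 3 rose and none fell (12 higher with the 6 libraries alone), with a median of 0.45, and in 18 every IR mouse lay above every Con mouse. The sterol oxidase gene Msmo1 had 164, 163 and 180.0 CPM in IR, against 102, 85.4 and 109 CPM in Con (log2 fold change 0.78 ± 0.14, adjusted p = 0.0334). IR 4 was level with the other IR mice for Msmo1 and for the list mean, 0.61 against 0.56 and 0.52 (log2 from the Con mean).

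Fatty acid oxidation and ketone synthesis had no call among 35 genes in the 9-library edgeR fit (18 with an unadjusted p under 0.05, 5 by DESeq2, 0 by limma-voom, 1 higher and 4 lower with the 6 libraries alone), and 16 were called without IR 4. The median was -0.52, and 21 had every IR mouse below every Con mouse (14.2% of all genes). Cpt1a, which admits long-chain fatty acids to mitochondria, had 259.7, 225 and 367 CPM in IR, against 526, 504 and 595 CPM in Con (log2 fold change -0.93 ± 0.22, adjusted p = 0.0574). Every IR mouse lay below every Con mouse for Cpt1a, and IR 4 was nearest to Con.

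Nuclear genes of oxidative phosphorylation gave no call among 48 with edgeR in either the 9-library or the 6-library fit (7 with an unadjusted p under 0.05, 1 by DESeq2 and 0 by limma-voom). Without IR 4 8 were called, and the list mean was -0.47, -0.30 and -0.02 in IR 2, IR 3 and IR 4. The mitochondrial transcript mt-Co1 had 20000.0, 22950.0 and 26440.0 CPM in IR, against 29700.0, 29680.0 and 28440.0 CPM in Con (adjusted p = 0.351). Mitochondrial transcripts took 4.14, 4.66 and 5.20% of the counts in IR and 5.52, 5.33 and 5.01% in Con.

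Detoxifying enzymes gave a pair of decreases. Of 49 cytochrome P450 and conjugation genes 2 fell and none rose, against 1 higher and 7 lower with the 6 libraries alone. The carboxylesterase gene Ces1d had 29.8, 30.2 and 54.9 CPM in IR, against 156, 216 and 101 CPM in Con (log2 fold change -2.04 ± 0.35, adjusted p = 0.0304). Its family member Ces1f had 39.5, 27.9 and 75.03 CPM in IR, against 149, 170.4 and 191 CPM in Con (log2 fold change -1.83 ± 0.36, adjusted p = 0.0411). They belong to a family of similar copies. The sulfotransferase Sult1a1 had 9.47, 6.79 and 112 CPM in IR, against 314, 356 and 261 CPM in Con (adjusted p = 0.236), low in IR 2 and IR 3 and intermediate in IR 4.

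Antioxidant genes under the regulator NRF2 rose for 4 of 29 (11 with the 6 libraries alone). Gpx2 (chr12:76792333-76795554), the glutathione peroxidase of gut epithelium, had 1157, 1253 and 641 CPM in IR, against 240.1, 161 and 289 CPM in Con (log2 fold change 2.14 ± 0.39, adjusted p = 0.035), the largest gain in CPM among called genes. Gsr, which regenerates glutathione, had 231, 239.5 and 216 CPM in IR, against 123, 122 and 141 CPM in Con (log2 fold change 0.82 ± 0.18, adjusted p = 0.0469). The IR mice were close together for Gsr, whereas IR 4 was lower than the other IR mice for Gpx2. Hmox1, haem oxygenase, had 11.4, 11.7 and 5.27 CPM in IR, against 3.60, 4.24 and 3.13 CPM in Con (log2 fold change 1.34 ± 0.30, adjusted p = 0.048), and the glutathione conjugate exporter Abcc1 rose by 0.83 ± 0.15. Slc7a11, the cystine importer, had 15.1, 14.8 and 4.01 CPM in IR, against 1.92, 1.79 and 2.58 CPM in Con and was called with the 6 libraries alone (adjusted p = 0.0283, against 0.0545 with 9).

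**Figure D5:**
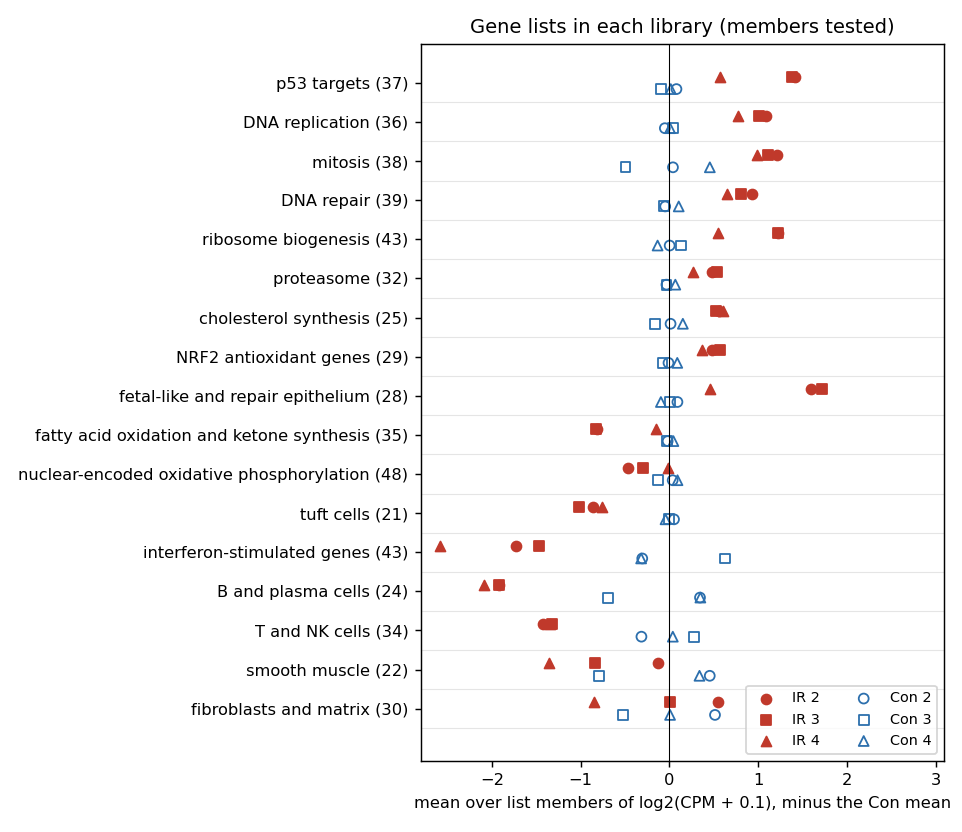
Mean over list members of log2(CPM + 0.1), minus the Con mean (x axis), for 17 lists (rows) in each library, IR filled above Con open. IR 4 lies nearer to Con than IR 2 and IR 3 for p53 targets, ribosome biogenesis, repair epithelium and fatty acid oxidation, level with them for cholesterol synthesis, and farther away for interferon-stimulated genes.

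Some genes of crypt stem and progenitor cells rose. Of 24 stem and progenitor genes 6 rose and none fell: Cdk6, Mex3a, Sox9, Cd44, Cdca7 and Ephb3 (7 higher with the 6 libraries alone). The list means of the groups overlapped, at 0.47, 0.19 and 0.26 in IR and 0.19, -0.19 and -0.01 in Con (log2 from the Con mean), and 5 members were below 0 in log2 fold change. One of these was the water channel gene Aqp4, with 27.5, 21.1 and 106 CPM in IR, against 451, 64.5 and 239 CPM in Con (log2 fold change -2.22 ± 0.78, adjusted p = 0.131), among the most abundant genes of the list. Of the genes that rose, Sox9, a regulator of crypt progenitors, had 66.7, 56.9 and 50.7 CPM in IR, against 36.7, 28.5 and 36.9 CPM in Con (log2 fold change 0.77 ± 0.16, adjusted p = 0.0436). Cd44, the hyaluronan receptor, had 271, 228 and 129 CPM in IR, against 77.8, 76.9 and 75.5 CPM in Con (log2 fold change 1.43 ± 0.30, adjusted p = 0.0449), with the Con mice within 3 CPM of each other. Mex3a, an RNA-binding protein of crypt stem cells, had 7.99, 5.36 and 5.14 CPM in IR, against 3.18, 1.41 and 2.02 CPM in Con (log2 fold change 1.48 ± 0.31, adjusted p = 0.0436). The stem cell receptor gene Lgr5 had 8.28, 5.82 and 8.38 CPM in IR, against 8.72, 5.12 and 8.02 CPM in Con (adjusted p = 0.942).

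Tuft cells, chemosensory cells of the lining, gave no call among 21 markers in the 9-library edgeR fit (12 with an unadjusted p under 0.05, 10 by DESeq2, 0 by limma-voom) but 13 with the 6 libraries alone, all lower. In 17 every IR mouse lay below every Con mouse, and the median was -0.92. Pou2f3, the regulator that defines the lineage, had 0.813, 0.494 and 1.16 CPM in IR, against 2.12, 2.57 and 2.42 CPM in Con (adjusted p = 0.229, and 0.0353 with the 6 libraries alone). Trpm5, the taste channel, had 5.17, 4.26 and 7.53 CPM in IR, against 13.03, 16.8 and 11.7 CPM in Con (adjusted p = 0.158). Dclk1, a kinase that marks tuft cells, had 18.9, 10.5 and 12.03 CPM in IR, against 27.2, 20.2 and 27.5 CPM in Con (adjusted p = 0.141). No IR mouse overlapped with Con in these 3 genes.

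Absorptive colonocytes gave no call among 23 markers with 9 libraries (3 with an unadjusted p under 0.05, 2 by DESeq2 and 0 by limma-voom, 1 higher and 1 lower with the 6 libraries alone). Car1, the carbonic anhydrase of the colon, had 7271, 8816 and 11840.0 CPM in IR, against 7034, 10620.0 and 12890.0 CPM in Con, with overlapping groups. Lypd8, a secreted protein that keeps flagellated bacteria from the surface, had 4856, 5607 and 5327 CPM in IR, against 9044, 12580.0 and 10170.0 CPM in Con (log2 fold change -1.02 ± 0.36, adjusted p = 0.131; 0.0219 with the 6 libraries alone), lower in every IR mouse. The epithelial polymeric immunoglobulin receptor Pigr, which carries IgA to the lumen, had 1325, 1051 and 2337 CPM in IR, against 4465, 4620.0 and 4075 CPM in Con (adjusted p = 0.121, and 0.027 with the 6 libraries alone).

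Goblet and enteroendocrine lists each held 1 increase, where 2.37% of all genes rose (8.55% with the 6 libraries alone). Ang4, an antimicrobial ribonuclease, rose among 26 goblet genes (3 higher with the 6 libraries alone) and had 215, 152 and 36.5 CPM in IR, against 27.4, 10.3 and 25.2 CPM in Con (log2 fold change 2.66 ± 0.56, adjusted p = 0.0446), with IR 4 just above the highest Con mouse. Muc2, the main mucin of the colon, had 13680.0, 6213 and 11500.0 CPM in IR, against 10100.0, 9328 and 8014 CPM in Con, with overlapping groups (adjusted p = 0.799). Tph1, which makes serotonin in enterochromaffin cells, rose among 26 enteroendocrine genes (4 higher with the 6 libraries alone) and had 42.9, 35.7 and 27.5 CPM in IR, against 18.4, 16.1 and 19.03 CPM in Con (log2 fold change 0.97 ± 0.18, adjusted p = 0.035). Chgb, a granin of secretory granules, had 226, 202 and 167 CPM in IR, against 90.2, 101 and 105 CPM in Con (adjusted p = 0.0977, and 0.0153 with the 6 libraries alone).

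Some wound and repair genes of the epithelium were higher. Of 28 fetal-like and repair genes 5 rose and none fell (10 higher with the 6 libraries alone, 13 called without IR 4). In 12 every IR mouse lay above every Con mouse (22.4% of all genes), and 4 were below 0 in log2 fold change. The 2 most abundant members had overlapping groups (edgeR adjusted p = 0.98 and 0.638). The metalloproteinase Mmp7 had 124, 67.7 and 23.5 CPM in IR, against 1.38, 1.37 and 1.86 CPM in Con (log2 fold change 5.51 ± 1.24, adjusted p = 0.0498). Il1rn, the natural blocker of the interleukin 1 receptor, had 166, 254 and 68.1 CPM in IR, against 40.5, 42.5 and 28.8 CPM in Con (log2 fold change 2.10 ± 0.40, adjusted p = 0.0374). The complement regulator Cd55 had 149, 188 and 63.5 CPM in IR, against 36.1, 34.4 and 31.6 CPM in Con (log2 fold change 1.95 ± 0.36, adjusted p = 0.0353). In these 3 genes IR 4 was the lowest IR mouse and lay above every Con mouse.

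The tight junction gene Cldn4 had 288, 433 and 130.5 CPM in IR, against 47.6, 59.5 and 43.9 CPM in Con (log2 fold change 2.47 ± 0.42, adjusted p = 0.0304) and was the 1 call among 29 junction genes (3 higher with the 6 libraries alone). Of 29 genes of squamous and wound epithelium, keratins among them, 20 were tested and 2 rose (4 higher with the 6 libraries alone). Krt15 had 6.56, 6.24 and 1.90 CPM in IR, against 0.862, 0.471 and 0.531 CPM in Con (log2 fold change 2.95 ± 0.48, adjusted p = 0.0301). Krt4, a keratin of layered epithelia, had 4.04, 6.18 and 0.411 CPM in IR, against 0.0493, 0.141 and 0.0531 CPM in Con (adjusted p = 0.0463), with Con at or under the floor of 3 counts in Con 2 and Con 4. Krt7, a keratin of simple epithelia, had 306, 337 and 233 CPM in IR, against 109, 159.5 and 142 CPM in Con (adjusted p = 0.0614, and 0.0246 with the 6 libraries alone). S100a11, a calcium-binding protein of epithelia, had 377, 449 and 218 CPM in IR, against 99.4, 87.2 and 126 CPM in Con (log2 fold change 1.73 ± 0.36, adjusted p = 0.0436).

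Among the largest increases of named protein-coding genes with at least 5 CPM in the higher group were Atg9b, Ly6g, Mmp7, Syt8, Grhl3, Bmp8b, Csta1, Chil3, Ms4a10, Pnliprp2 and Eda2r. Atg9b, a paralogue of the autophagy membrane protein Atg9a, had 82.4, 101 and 10.2 CPM in IR, against 0.739, 0.424 and 0.557 CPM in Con (log2 fold change 6.78 ± 1.01, adjusted p = 0.0271). The epithelial barrier regulator Grhl3 had 8.48, 9.12 and 1.93 CPM in IR, against 0.394, 0.330 and 0.212 CPM in Con (log2 fold change 4.33 ± 0.57, adjusted p = 0.0232). The synaptotagmin Syt8 had 18.3, 31.5 and 5.63 CPM in IR, against 0.492, 0.684 and 1.14 CPM in Con (log2 fold change 4.55 ± 0.63, adjusted p = 0.0236). Bmp8b, a ligand of the bone morphogenetic protein family, had 32.9, 37.7 and 9.48 CPM in IR, against 1.53, 1.74 and 0.770 CPM in Con (log2 fold change 4.27 ± 0.71, adjusted p = 0.0304). In each of these IR 4 lay far below IR 2 and IR 3 and above every Con mouse.

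Genes of the interferon response fell. Type I and III interferons, made on sensing of viral or microbial nucleic acids, switch on antiviral effectors through a complex of transcription factors that includes IRF9, and a healthy gut keeps a basal level of them. Of 43 members 26 fell and none rose, where 0.845% of all genes fell; 32 were lower with the 6 libraries alone and 15 were called without IR 4. The median was -2.14. IR 4 was the farthest from Con, with a list mean of -2.59 against -1.72 and -1.47 in IR 2 and IR 3. Con 3 was the highest Con mouse, at 0.62 against -0.31 and -0.32 in Con 2 and Con 4 (log2 from the Con mean).

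The oligoadenylate synthases sense double-stranded RNA. Oas2 (chr5:120730333-120749853) had 21.98, 24.2 and 14.1 CPM in IR, against 291, 267 and 297 CPM in Con (log2 fold change -3.84 ± 0.38, adjusted p = 0.0206; 0.00187 with the 6 libraries alone). Oas3 had 59.1, 75.4 and 38.8 CPM in IR, against 326, 437 and 373 CPM in Con (log2 fold change -2.73 ± 0.56, adjusted p = 0.0419). Oas1g had 34.7, 44.7 and 31.3 CPM in IR, against 143, 185 and 154 CPM in Con (log2 fold change -2.14 ± 0.23, adjusted p = 0.0222). The Con mice were close together for Oas2, and IR 4 was the lowest mouse in Oas2 and Oas3. In Oas1g IR 4 was lowest in CPM, but so near IR 2 that the order depends on the scaling. Oas1g is part of a cluster of near-identical genes. The RNA sensor Ifih1, MDA5, fell (log2 fold change -1.36 ± 0.28), and Dhx58, LGP2, had 17.02, 19.9 and 9.82 CPM in IR, against 104, 184 and 104 CPM in Con (log2 fold change -3.10 ± 0.39, adjusted p = 0.0232). Of the factors that carry the signal, Irf7 had 246, 279.5 and 153 CPM in IR, against 697, 1071 and 864 CPM in Con (log2 fold change -1.98 ± 0.27, adjusted p = 0.0236). Irf9, which guides that complex to DNA, had 78.99, 83.5 and 56.5 CPM in IR, against 134, 172 and 132 CPM in Con (log2 fold change -1.02 ± 0.18, adjusted p = 0.0329).

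Effectors fell as well. Isg15, the ubiquitin-like modifier, had 36.5, 55.8 and 17.8 CPM in IR, against 254, 524 and 268 CPM in Con (log2 fold change -3.29 ± 0.65, adjusted p = 0.0401). Ifit1, which binds viral RNA caps, had 97.98, 142 and 75.2 CPM in IR, against 384, 791 and 316 CPM in Con (log2 fold change -2.28 ± 0.45, adjusted p = 0.0411). Rsad2, viperin, had 26.3, 30.4 and 21.9 CPM in IR, against 125, 401 and 113 CPM in Con (log2 fold change -3.07 ± 0.56, adjusted p = 0.0353). Con 3 was the highest and IR 4 the lowest mouse in these 3 genes. Slfn4, a schlafen gene with near copies, had 183, 299 and 147 CPM in IR, against 2331, 2184 and 2870.0 CPM in Con (log2 fold change -3.56 ± 0.41, adjusted p = 0.0222), the largest loss in CPM among called genes. Ifi27l2b, outside the list and named for its loss in CPM, had 50.2, 64.1 and 60.9 CPM in IR, against 382, 397 and 347 CPM in Con (log2 fold change -2.69 ± 0.19, adjusted p = 0.00406), with 6 narrow values and the smallest adjusted p of all genes.

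The interferon-stimulated response element was searched as GAAANNGAAA on both strands. It was found in 13 of the 21 called interferon-stimulated genes with a promoter in the table (61.9%) and in 20 of the 32 tested (62.5%). Within the list it thus did not set called members apart. It was found in 27 of 110 genes that fell (24.5%), which include the called list members, in 8 of 350 that rose (2.29%) and in 507 of all 12991 (3.90%). Windows of 100 bases are shown for 3 of the genes whose levels are given above, Isg15 (chr4:156200842-156200941, minus strand), Ifit1 (chr19:34640740-34640839, plus strand) and Rsad2 (chr12:26456518-26456617, minus strand), with matches in capitals. Overlapping matches run together in Isg15, and Ifit1 and Rsad2 hold the element on the opposite strand.
Isg15: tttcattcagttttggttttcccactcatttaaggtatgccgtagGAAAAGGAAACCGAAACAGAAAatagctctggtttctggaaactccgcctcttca
Ifit1: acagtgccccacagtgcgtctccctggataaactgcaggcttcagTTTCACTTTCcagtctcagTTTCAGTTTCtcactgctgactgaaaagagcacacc
Rsad2: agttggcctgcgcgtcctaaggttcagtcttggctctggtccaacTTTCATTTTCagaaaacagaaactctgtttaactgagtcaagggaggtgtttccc

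Class I antigen presentation, which interferon also raises, was lower in part. Of 20 genes 1 fell, H2-T23, with 282, 319 and 285 CPM in IR, against 609.5, 998 and 595 CPM in Con (log2 fold change -1.33 ± 0.29, adjusted p = 0.0478), and 5 were lower with the 6 libraries alone. B2m, the shared light chain, had 1010.0, 917 and 736 CPM in IR, against 1569, 1653 and 1717 CPM in Con (adjusted p = 0.128, and 0.0161 with the 6 libraries alone). H2-D1 had 1239, 1299 and 1113 CPM in IR, against 1703, 1658 and 1784 CPM in Con (adjusted p = 0.183). The list median of -0.50 went to 0.01 when IR 4 and Con 3 were both left out, an alternative added after seeing the data.

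Lymphocyte genes were lower. Of 24 B and plasma cell markers 10 fell and none rose (15 lower with the 6 libraries alone, 10 called without IR 4), with a median of -2.09. The B cell receptor gene Cd79b (chr11:106311341-106314762) had 0.465, 0.494 and 0.308 CPM in IR, against 4.41, 1.81 and 4.70 CPM in Con (log2 fold change -3.09 ± 0.40, adjusted p = 0.0232). Ighd, the IgD heavy chain of naive B cells, had 0.174, 0.220 and 0.103 CPM in IR, against 6.06, 0.966 and 9.40 CPM in Con (log2 fold change -5.01 ± 0.84, adjusted p = 0.0304). Con 3 was the lowest Con mouse for both genes, and no IR mouse reached it.

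Plasma cell transcripts fell too. Igha, the IgA heavy chain, had 324, 311 and 397 CPM in IR, against 1029, 1009 and 650.4 CPM in Con (log2 fold change -1.38 ± 0.22, adjusted p = 0.0296). Jchain, which joins IgA into dimers, had 88.9, 85.3 and 115 CPM in IR, against 316, 319 and 194 CPM in Con (log2 fold change -1.52 ± 0.26, adjusted p = 0.0304). The kappa light chain Igkc had 190.5, 175 and 220.5 CPM in IR, against 583, 556 and 327 CPM in Con (log2 fold change -1.32 ± 0.28, adjusted p = 0.0447). Here Con 4 and not Con 3 was the lowest Con mouse, and IR 4 was the highest IR mouse. Reads of immunoglobulin genes are shared between segments, and how they were assigned is not stated.

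Of 34 T and NK cell markers 11 fell and none rose (19 lower and 1 higher with the 6 libraries alone, 12 called without IR 4), with a median of -1.80. Cd3g (chr9:44969572-44980431), a chain of the T cell receptor complex, had 0.929, 1.26 and 0.925 CPM in IR, against 3.94, 7.66 and 4.99 CPM in Con (log2 fold change -2.43 ± 0.35, adjusted p = 0.0259). Trbc2, a constant segment of the receptor, had 0.842, 0.769 and 0.848 CPM in IR, against 3.23, 3.94 and 2.97 CPM in Con (log2 fold change -2.05 ± 0.33, adjusted p = 0.0296). Cd8a, the coreceptor of cytotoxic T cells, had 2.21, 2.47 and 2.39 CPM in IR, against 5.02, 14.5 and 9.53 CPM in Con (log2 fold change -2.06 ± 0.39, adjusted p = 0.0355). No IR mouse reached the lowest Con mouse in these genes. The chemokine gene Ccl5 had 1.16, 1.70 and 1.80 CPM in IR, against 3.99, 8.25 and 9.08 CPM in Con (log2 fold change -2.19 ± 0.47, adjusted p = 0.0454). The list mean was -1.43, -1.33 and -1.35 in IR 2, IR 3 and IR 4.

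Myeloid markers gave few calls. Of 27 macrophage genes none passed the edgeR test with 9 libraries (5 with an unadjusted p under 0.05, 1 by DESeq2 and 0 by limma-voom, 1 lower with the 6 libraries alone), and the median was 0.40. The lysozyme Lyz2 had 184, 142 and 83.7 CPM in IR, against 102, 94.02 and 78.02 CPM in Con. In the neutrophil list 1 of 17 tested genes rose (1 higher with the 6 libraries alone), Ly6g, with 75.1, 69.1 and 12.98 CPM in IR, against 1.82, 0.471 and 0.743 CPM in Con (log2 fold change 5.67 ± 0.73, adjusted p = 0.0232). The neutrophil genes S100a8 and S100a9, whose proteins fill the cytosol of these cells, were low: S100a8 had 0.290, 1.32 and 0.129 CPM in IR, against 0.0985, 0.0471 and 0 CPM in Con. S100a9 had 0.610, 2.14 and 0.103 CPM in IR, against 0.0493, 0.0943 and 0 CPM in Con. Both stood at or near the floor in Con, and neither passed the test. With the 6 libraries alone neither was kept for testing. Ly6g belongs to a cluster of similar genes. H2-Ob, a class II cofactor of B and dendritic cells, had 0.320, 0.302 and 0.386 CPM in IR, against 5.88, 1.77 and 8.92 CPM in Con (log2 fold change -4.003 ± 0.56, adjusted p = 0.0237), the 1 call among 23 dendritic cell genes (2 lower with the 6 libraries alone).

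Cells of the wall gave few calls and wide spreads. Of 22 smooth muscle genes none passed the edgeR test in the 9-library or the 6-library fit (10 with an unadjusted p under 0.05, 3 by DESeq2 and 0 by limma-voom), and all were below 0 in log2 fold change with a median of -0.78. Myh11, smooth muscle myosin, had 1422, 599.8 and 475 CPM in IR, against 2297, 795 and 2166 CPM in Con. Con 3 lay within the IR range and IR 2 was the highest IR mouse. The list mean was -0.12, -0.83 and -1.35 in IR and 0.45, -0.79 and 0.34 in Con, so muscle transcripts differed between mice of the same group, and their part in the results above was not tested.

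Fibroblast and matrix genes held 1 call of 30 (1 lower with the 6 libraries alone), the platelet-derived growth factor receptor Pdgfrb, with 17.4, 13.02 and 11.6 CPM in IR, against 29.6, 24.2 and 24.3 CPM in Con (log2 fold change -0.90 ± 0.18, adjusted p = 0.0401). Its groups did not overlap, and the list median of -0.03 went to 0.48 with Hoxa13 as a covariate, 0.21 without IR 4, 0.24 without Con 2 and 0.06 with IR 4 and Con 3 both left out. Enteric neurons and glia gave no call of 24 with 9 libraries (5 with an unadjusted p under 0.05, 2 by DESeq2 and 0 by limma-voom, 1 lower with the 6 libraries alone). The endothelium gave none of 25 (4 with an unadjusted p under 0.05, 2 by DESeq2 and 0 by limma-voom, 2 higher with the 6 libraries alone). Icam1, an adhesion receptor for leukocytes, had 31.5, 33.1 and 9.30 CPM in IR, against 6.94, 6.48 and 5.73 CPM in Con (adjusted p = 0.0824, and 0.0357 with the 6 libraries alone).

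Regulators outside these groups contributed single genes. Arntl, known as Bmal1 and a core clock factor, had 28.8, 26.3 and 34.5 CPM in IR, against 60.8, 57.4 and 57.7 CPM in Con (log2 fold change -0.97 ± 0.20, adjusted p = 0.0436), the 1 call among 22 clock genes (2 lower with the 6 libraries alone); the hour of tissue collection is not given for any mouse. Pla2g2a, of the secreted phospholipase family, had 20.8, 11.9 and 7.99 CPM in IR, against 2.02, 1.44 and 1.70 CPM in Con (log2 fold change 2.96 ± 0.47, adjusted p = 0.0296). GENCODE M21 types it as a polymorphic pseudogene, so its transcript need not give an active enzyme. Rdh10, which makes retinal from vitamin A, had 75.5, 78.4 and 47.8 CPM in IR, against 37.6, 39.4 and 31.96 CPM in Con (log2 fold change 0.87 ± 0.18, adjusted p = 0.0418). Clca4a, an epithelial protein of the calcium-activated chloride channel family, had 405, 444 and 417 CPM in IR, against 245, 122 and 118 CPM in Con (log2 fold change 1.40 ± 0.30, adjusted p = 0.0463); it has similar neighbouring copies. Arc, best known as an immediate early gene of neurons, had 3.77, 3.74 and 1.59 CPM in IR, against 0.295, 0.660 and 0.266 CPM in Con (log2 fold change 2.84 ± 0.52, adjusted p = 0.0353), the 1 call of 27 immediate early genes (3 higher with the 6 libraries alone).

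Notch pathway genes gave no call of 25 with 9 libraries (8 with an unadjusted p under 0.05, 3 by DESeq2, 0 by limma-voom, 1 higher and 2 lower with the 6 libraries alone). Glucocorticoid response genes gave none of 19 (3 with an unadjusted p under 0.05, 0 by DESeq2 and 0 by limma-voom, 1 lower with the 6 libraries alone), and heat shock proteins and chaperones none of 23 (7 with an unadjusted p under 0.05, 2 by DESeq2 and 0 by limma-voom, 3 higher with the 6 libraries alone). Markers of other tissues were examined in the same way. Adipocyte genes gave no call of 12 (2 with an unadjusted p under 0.05, 0 by DESeq2, 0 by limma-voom, 1 lower with the 6 libraries alone), with list means of 0.55, -0.94 and -2.37 in IR and 0.14, 0.99 and -1.13 in Con, so adipocyte transcripts differed between mice of the same group. Genes of the exocrine pancreas, 5 of 13 tested, and of red blood cells, 7 of 9, gave no call and none with an unadjusted p under 0.05, and neither DESeq2, limma-voom nor the 6 libraries alone called any.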

How the data were processed

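RNA from the colon of single mice was sequenced as poly(A) libraries, per the labels' protocols. The authors deposited a table of raw counts and FPKM values for 33539 genes in 9 libraries; FPKM was not used here. HISAT2, featureCounts and DESeq2 with builds GRCm38 and mm10 are listed in the submitters' processing notes; versions, annotation release, strand setting and treatment of reads shared between genes were not given in the sources used here. Without strand, reads of overlapping or antisense genes cannot be told apart.

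Counts were tested with edgeR 4.0.16 in R 4.3.3: TMM scaling, filterByExpr on the 3 groups (19174 genes kept), robust glmQLFit on all 9 libraries, the contrast of IR minus Con, and Benjamini-Hochberg adjustment over all genes tested. The 3 libraries of irradiated mice given CF-2 entered the filter, the scaling and the estimate of the spread. The fit without them, which kept 18469 genes, is set beside the main one. P-values rest on 3 mice a group. The standard error printed after ± was taken as the size of the log2 fold change over the root of the F statistic. CPM was computed from the library total without TMM factors, which enter the fold changes. These factors were 1.033, 0.981 and 0.925 in IR 2, IR 3 and IR 4 and 1.019, 0.922 and 0.988 in Con 2, Con 3 and Con 4. Rankings of mice by CPM leave them out, so the order of close values can depend on the scaling. The floor of 3 counts covers counting error only. DESeq2 1.42.0 and limma-voom (limma 3.58.1) were alternatives, beside other scalings, filters, a replicate block, a Hoxa13 covariate and leaving out each library; tables used Python 3.11.15 with pandas 2.3.3 and numpy 2.4.6. The fit was tested on simulated counts, where 2% of calls were false. Few genes were changed there and no shift was shared between genes, so this share need not hold for the data.

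The 53 gene lists, the members and the rule for naming genes were chosen with earlier results of these data known. The rule took called genes with groups apart, 5 CPM or more on average in one group and the 12 largest increases or decreases or the 10 largest changes in CPM; in each list the 4 genes with the smallest p and the 2 most abundant; the 10 most abundant genes of all; and called genes without a count in 1 group. 37 of the 163 genes named fall outside it and were chosen after their values were seen. Gene types and coordinates come from GENCODE M21, which holds 32869 of the table's genes, and promoter sequences from RefSeq on GRCm38.p6. Some genes that meet the rule are not reported here.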

Additional observations from a re-analysis of the deposited data

How the results depend on the processing

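The main counts, 454 higher and 162 lower, moved with most choices, and the cause was not tested. RLE scaling gave 173 and 104, upper quartile scaling 166 and 136 (the lower count within 1.5 times), no filter on low counts 215 and 124, DESeq2 1449 and 864 with 9 libraries and 2252 and 1628 with 6, limma-voom 115 and 71, edgeR with the 6 libraries 1580 and 727, leaving out mitochondrial and the 20 most abundant genes 251 and 149, and the Hoxa13 covariate 16 and 33. An adjusted p under 0.01 gave 0 and 1, and a limit of 2-fold 265 and 139. A stricter filter (555 and 180) and robust = FALSE (471 and 165) stayed within 1.5 times. Leaving out each library in turn gave 0 to 789 higher and 1 to 402 lower, the high ends without IR 4. Leaving out IR 4 and Con 3 together, an alternative added after seeing the data, gave 183 and 109. Upper quartile scaling moved the median of all tested genes to -0.08 and shifted the share of calls that were higher to 55.0%, against 73.7% with TMM.

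With the replicate number as a block the counts were 669 and 275. Same-numbered mice correlated at 0.261, 0.108 and 0.0895 in their deviations from the group means, not all over 0.1, although each library correlated best with its own number; the labels give no meaning to the numbers. Of the 118 called genes named in the text, all stayed called with robust = FALSE, all with the 6 libraries alone but Prmt8, which was not tested there, and all with DESeq2 but Prmt8, Alox12e and I730028E13Rik, which had no adjusted p there. Those that stayed called were 99 with the block, 107 without IR 4, 66 with upper quartile scaling, 62 with RLE scaling, 37 with limma-voom, 15 with the Hoxa13 covariate, 1 without IR 2, 1 without IR 3, 1 without Con 2, 7 without Con 3, 2 without Con 4 and 50 without IR 4 and Con 3. No called gene named in the text changed direction under any of these alternatives. Genes short of the threshold that did change sign were Car1, whose log2 fold change ran from -0.39 to 0.0607 with 1 library left out (above 0 without IR 2 or Con 4); Lgr5, from -0.12 to 0.17 (below 0 without IR 4 or Con 3), -0.0465 with upper quartile scaling, -0.0169 without the most abundant genes and -0.26 without IR 4 and Con 3; and Perp, from -0.0601 to 0.17 (below 0 without IR 3), -0.0295 with upper quartile scaling, -0.00151 without the most abundant genes and -0.0113 with the Hoxa13 covariate. The common biological coefficient of variation of the libraries was 30.6%. In counts of 19174 genes simulated at their depth and with gene-wise estimates of the spread, 23% of 2-fold and 75% of 4-fold changes were called. Few genes were changed there, so these shares need not hold for the data.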

Other observations

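Several abundant genes that the gene lists do not hold were among those with the largest gains in CPM. The tubulin gene Tubb5 had 520.3, 489 and 340.4 CPM in IR, against 196, 146 and 187 CPM in Con (log2 fold change 1.34 ± 0.27, adjusted p = 0.0418), and the protocadherin gene Fat1 had 589, 589 and 280.1 CPM in IR, against 232, 191 and 207 CPM in Con (log2 fold change 1.20 ± 0.26, adjusted p = 0.0462). Lmo7, which links cell junctions to actin, had 531, 636 and 473 CPM in IR, against 331, 333 and 344 CPM in Con (log2 fold change 0.70 ± 0.13, adjusted p = 0.0374). Idh1, which makes NADPH in the cytosol, had 489, 494 and 393 CPM in IR, against 251, 219.7 and 286 CPM in Con (log2 fold change 0.86 ± 0.19, adjusted p = 0.0479), and the RNA helicase gene Ddx3x had 591, 519.8 and 470.0 CPM in IR, against 338, 344 and 342 CPM in Con (log2 fold change 0.61 ± 0.14, adjusted p = 0.0478). The groups were apart in these 5 genes, and IR 4 was the lowest IR mouse in each. Among the interferon-stimulated genes with the largest decreases, Ifi44 had 22.3, 25.6 and 7.89 CPM in IR, against 165, 297 and 165 CPM in Con (log2 fold change -3.54 ± 0.57, adjusted p = 0.0301), Mx2 had 6.53, 8.63 and 4.21 CPM in IR, against 44.8, 101 and 37.8 CPM in Con (log2 fold change -3.29 ± 0.56, adjusted p = 0.0304) and Oas1b had 5.20, 4.95 and 3.08 CPM in IR, against 34.5, 47.1 and 31.5 CPM in Con (log2 fold change -3.12 ± 0.27, adjusted p = 0.012), again with IR 4 lowest. GENCODE M21 types Mx2 and Oas1b as polymorphic pseudogenes.

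The list of antimicrobial and surface defence genes had 1 call among 29, Ang4, whose values are given above, and 4 higher and 6 lower with the 6 libraries alone. Of its abundant members, the C-type lectin gene Reg3b, whose product binds bacteria, had 7313, 6232 and 13210.0 CPM in IR, against 2725, 4295 and 4739 CPM in Con (adjusted p = 0.662), with every IR mouse above Con. Outside the list, Dmbt1, a mucosal scavenger receptor, had 2836, 2232 and 8163 CPM in IR, against 11000.0, 11990.0 and 11460.0 CPM in Con (adjusted p = 0.197), with every IR mouse below Con and IR 4 nearest to it. IR 4 stood apart from IR 2 and IR 3 in both genes. Glycolysis gave 1 increase, Gapdh (0.75 ± 0.16, a gene with many processed copies), and 1 decrease, Ldhb (-0.89 ± 0.16), among 30 (1 higher and 1 lower with the 6 libraries alone). The haem exporter Flvcr1 rose (0.75 ± 0.17), as did Hmox1, among 28 genes of iron and haem (4 higher and 1 lower with the 6 libraries alone). The lipoxygenase gene Alox12e rose (3.62 ± 0.76), as did Pla2g2a, among 29 genes of prostaglandins and leukotrienes (3 higher with the 6 libraries alone). Alox12e was scarce, with 0.697, 0.357 and 0.308 CPM in IR, against 0, 0.0471 and 0.0531 CPM in Con. Every Con library was under the floor of 3 counts for Alox12e, so the size of its fold change is uncertain. Rdh10 was the 1 call among 21 retinoid genes (4 higher and 1 lower with the 6 libraries alone), Amd1 the 1 call among 18 polyamine genes (4 higher with the 6 libraries alone), Clca4a the 1 call among 40 transport genes (2 higher with the 6 libraries alone) and Cd44, which also marks crypt cells, the 1 call among 10 markers of interstitial cells of Cajal (1 higher with the 6 libraries alone).

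Of 10 skeletal muscle genes the troponin gene Tnni2 rose (2.75 ± 0.60; 1 higher with the 6 libraries alone). Mast cell and eosinophil markers gave no call of 11 with edgeR (3 with an unadjusted p under 0.05, 2 by DESeq2, 0 by limma-voom, none with the 6 libraries alone), and small intestine markers gave none of 19 (2 with an unadjusted p under 0.05, 1 by DESeq2, 0 by limma-voom, 3 higher and 1 lower with the 6 libraries alone). A pair of called genes had no count at all in 1 group. Prmt8 had 0 CPM in IR 2, IR 3 and IR 4, against 0.246, 0.189 and 0.266 CPM in Con (adjusted p = 0.0429), and I730028E13Rik had 0.290, 0.330 and 0.308 CPM in IR, against 0 CPM in Con 2, Con 3 and Con 4 (adjusted p = 0.0438).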
